A study of Danio rerio with 6 samples.

Results

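The 200 transcripts described here are those whose level was most reduced between 24 and 96 hours post fertilization (hpf) in zebrafish offspring, out of 58002 identifiers listed in each library. They were chosen by log2 of the lowest level at 24 hpf plus 1 over the highest level at 96 hpf plus 1, taken over 3 libraries per stage, so every member had to be lower at 96 hpf in all 3 parental groups. The size of the decrease is therefore a description and was not tested. Levels are given in FPKM, which divides the fragments of a transcript by its length and by the mapped fragments of the library, so that values of different transcripts are on a scale per length.

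The libraries come from F1 embryos of wild-type zebrafish of the AB strain. The F0 parents, 3 months old, had been kept for over 21 days in normal water (control), in 0.078 µM copper (5 µg/L) or in 0.156 µM copper (10 µg/L), and all embryos, control and copper offspring alike, grew in water without added copper. For each parental group and stage 50 to 60 embryos, picked by phenotype according to the design text, were lysed together, and 1 library stands for each of the 6 groups. The design text names 3 biological repetitions, and the labels do not say whether they were pooled. No group has a replicate library, so values within a stage carry no replicate error, and exposure of the parents cannot be told apart from the clutch or from the choice of embryos.

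In zebrafish the earlier stage lies at the end of somite formation, when much of the embryo still consists of dividing progenitors and transient structures such as the hatching gland are active. By the later stage the larva has normally left its chorion, the main organs are in place, and many transcripts of early patterning, of proliferation and of transient tissues have been lost or diluted. In whole embryos, fewer cells of a type and less RNA per cell cannot be told apart. The files list Ensembl transcript IDs without gene names, and of the 200 members 0 could be paired with a gene through the tables used here. No gene, pathway or cell type is therefore named, the labelled stage could not be checked against marker genes, no sequence is shown, and members are identified by their rank, with 1 for the highest value of the rule.

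At 24 hpf the members lay above a floor that the rule sets in all 3 libraries, so a clear level there was fixed in advance. Their median was 40.6 FPKM in control offspring, 41.7 in 0.078 µM offspring and 41.9 in 0.156 µM offspring, and the range over the 3 libraries ran from 3.62 to 2101 FPKM. At least 10 FPKM was reached by 177, 174 and 176 members in that order, and at least 100 FPKM by 47, 46 and 49. Together they held 4.07% of all FPKM in the control library, 4.38% in the 0.078 µM library and 4.11% in the 0.156 µM library. At 96 hpf these shares were 0.356%, 0.386% and 0.384%. Among the 1000 most abundant identifiers of a library were 66 to 70 members at 24 hpf and 4 members in each library at 96 hpf.

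The member of rank 1, ENSDART00000055623, had 1605, 1425 and 1406 FPKM at 24 hpf in control, 0.078 µM and 0.156 µM offspring, and 0.101, 0.564 and 0.283 FPKM at 96 hpf. It thus went from one of the most abundant members to a trace, and kept 0.00632%, 0.0396% and 0.0201% of that level. The most abundant member at both stages, ENSDART00000028885 of rank 190, had 2025, 2101 and 2074 FPKM at 24 hpf and 383, 419 and 451 FPKM at 96 hpf. It kept 18.9%, 19.9% and 21.8%, so it entered the set while it was still abundant at the later stage. The set thus holds transcripts that were nearly gone at 96 hpf beside transcripts that were reduced to a lower but clear level.

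**Figure D1:**
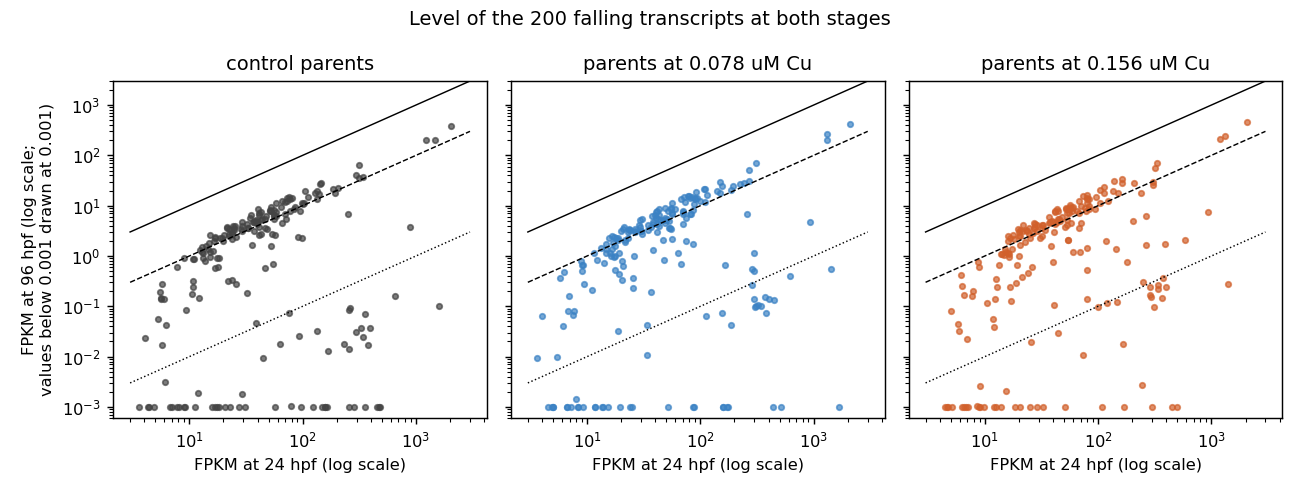
FPKM at 24 hpf (x axis, log scale) against FPKM at 96 hpf (y axis, log scale, values below 0.001 drawn at 0.001) for each of the 200 members (points) in offspring of control parents and of parents at 0.078 µM and 0.156 µM copper. The solid line marks equal levels, the dashed line a level 10 times lower and the dotted line a level 1000 times lower at 96 hpf, and in each panel a dense band lies near the dashed line while scattered points lie far below it.

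The residual level at 96 hpf had a median of 2.21 FPKM in control, 2.05 FPKM in 0.078 µM and 2.08 FPKM in 0.156 µM offspring. As a percentage of the level at 24 hpf in the same parental group, the median was 8.09% in control, 8.27% in 0.078 µM and 7.52% in 0.156 µM offspring, with quartiles of 0.0320% and 12.8%, 0.243% and 12.9%, and 0.321% and 13.4%. The upper end is set by the rule, and the highest values were 20.9%, 22.4% and 22.2%. The median decrease on the log2(FPKM + 1) scale was 2.97 in control, 2.97 in 0.078 µM and 2.99 in 0.156 µM offspring.

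By the highest percentage left in any parental group, 36 members kept up to 0.1%, 15 kept 0.1 to 1%, 26 kept 1 to 5%, 24 kept 5 to 10% and 99 kept more than 10%. The members that kept up to 0.1% had a median of 119 FPKM at 24 hpf, averaged over the 3 libraries, and those that kept more than 10% had 46.5 FPKM. Those that kept 5 to 10% were the lowest at the early stage, with a median of 15.8 FPKM. A low level at 24 hpf can pass the rule only with little left, because 1 FPKM is added to both levels. Fewer members lay between 1% and 10% left than above 10%, which gives the set a long tail of nearly lost transcripts.

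In all 3 libraries of 96 hpf, 72 members were below 1 FPKM, 32 were below 0.1 FPKM and 10 were listed at exactly 0. At the other end, 111 members stayed at 1 FPKM or more in all 3, 28 at 10 FPKM or more and 3 at 100 FPKM or more. Rank 161 had 1481, 1308 and 1314 FPKM at 24 hpf and 198, 266 and 238 FPKM at 96 hpf. Rank 130 had 1230, 1308 and 1192 FPKM at 24 hpf and 199, 205 and 214 FPKM at 96 hpf. Together with rank 190 these are the 3 members that stayed above 100 FPKM. The next highest at 96 hpf was rank 199, with 65.3, 69.5 and 69.8 FPKM after 317, 309 and 333 FPKM at 24 hpf. In these high members the 3 libraries of a stage lay close together, with rank 161 at 96 hpf the widest apart.

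**Figure D2:**
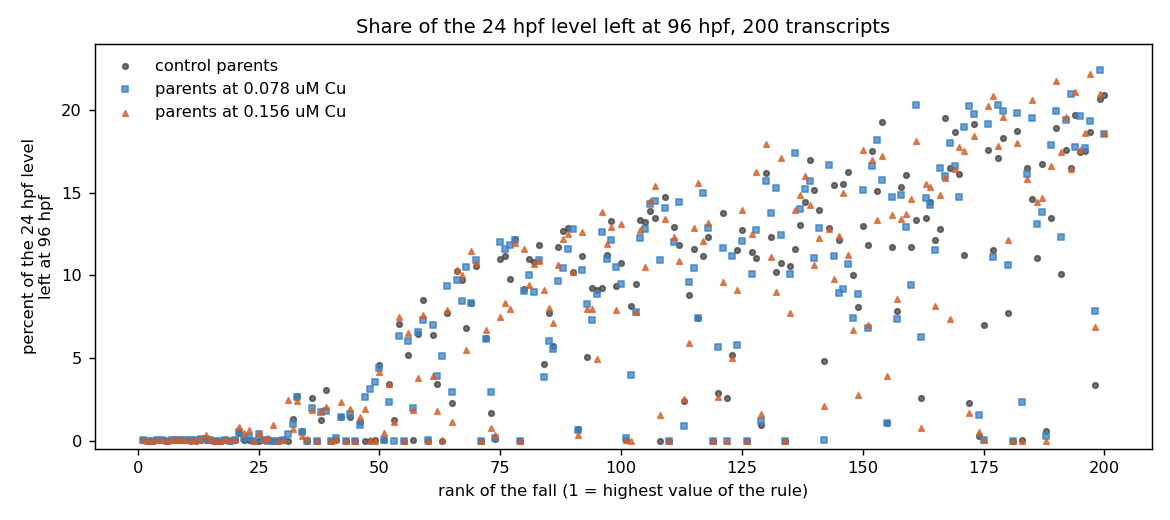
Percentage of the 24 hpf FPKM left at 96 hpf in the same parental group (y axis) against the rank of the member (x axis), 1 point per member and parental group. The first 25 ranks lie near 0, and a band rises to about 20% at the last ranks, with scattered members near 0 at all ranks.

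The 10 members listed at 0 in all 3 libraries of 96 hpf include ranks 2, 3 and 6. Rank 2 had 475, 519 and 451 FPKM at 24 hpf, and that of rank 3 had 485, 436 and 493 FPKM. For rank 6 the levels at 24 hpf were 449 FPKM in control, 1664 FPKM in 0.078 µM and 299 FPKM in 0.156 µM offspring. Its highest value was 5.57 times its lowest, the widest spread at this stage after the 5.62 times of rank 74. The lowest of the 10, rank 134, had 4.42, 4.54 and 4.69 FPKM at 24 hpf. In each library of 24 hpf its value was shared to the last digit by 2 other identifiers, and 6 other members shared a value with another identifier in 1 library. The number of fragments behind a value is not known, and a value listed at 0 in FPKM is not taken as absence.

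At the threshold of the rule, the last 3 members had values of 2.14, 2.13 and 2.13 and the first 3 transcripts outside had 2.12, 2.12 and 2.11. Rank 200 had 40.3, 40.9 and 42.0 FPKM at 24 hpf and 8.42, 7.58 and 7.82 FPKM at 96 hpf. The transcript of rank 201 had 21.8, 23.2 and 27.3 FPKM at 24 hpf and 4.25, 2.54 and 3.71 FPKM at 96 hpf. No gap separates the members from the transcripts that follow.

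Agreement between the parental groups was examined first at 24 hpf. Across the 200 members, Pearson's r of log2(FPKM + 1) with the control library was 0.989 for 0.078 µM and 0.983 for 0.156 µM, and both copper libraries had 0.978 with each other, where the points share the wide range of levels and the floor that the rule sets in all 3 libraries. In 123 members the highest of the 3 values was at most 1.2 times the lowest, and the median of this ratio was 1.15. Neither value was computed over all transcripts. Only 7 members, 3.50%, had any 2 libraries at least 2-fold apart on log2(FPKM + 1), against 9.43% of the 24537 transcripts with at least 1 FPKM in a library of this stage. The rule keeps out transcripts that are low in any library of 24 hpf. Among the 12101 transcripts that, like the members, had at least 3.62 FPKM in all 3 libraries, 1.45% were that far apart. Pair by pair, 0.078 µM was at least 2-fold above control in 1 member and below it in 1, where 2.26% and 2.39% of the transcripts tested were. For 0.156 µM against control the counts were 1 and 2, beside 3.02% and 2.42%. For 0.156 µM against 0.078 µM they were 4 and 3, beside 2.97% and 2.32%. In either direction these are 1%, 1.5% and 3.5% of the members, beside 0.554%, 0.876% and 0.686% of the transcripts with the members' floor. The first of these rest on only 2 and 3 members and are not read as a difference from that share.

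The 7 members did not share a pattern. Beside rank 6, the 0.078 µM library stood apart in rank 41, with 44.2 FPKM in control, 18.7 FPKM in 0.078 µM and 44.0 FPKM in 0.156 µM offspring, and in rank 30, with 63.0, 34.1 and 73.3 FPKM. The 0.156 µM library stood apart in rank 74, with 38.8, 34.1 and 6.90 FPKM. It also stood apart in rank 84, with 57.0, 55.9 and 25.2 FPKM. In rank 45 the 0.156 µM library was the highest, with 32.6 FPKM against 15.9 and 13.5 FPKM. So it was in rank 188, with 12.05 FPKM against 4.06 and 3.64 FPKM. Both copper libraries at least 2-fold from control in the same direction were found for 0 members at 24 hpf, where 0.876% of the transcripts tested were higher and 0.978% were lower.

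Smaller differences from control at 24 hpf were more often upward. The 0.078 µM library was above control in 131 of the 200 members and the 0.156 µM library in 130, against 52.9% and 52.5% of all transcripts tested and 52.3% and 51.5% of those with the members' floor. The median differences were 0.06 on the log2(FPKM + 1) scale at either dose, beside a median absolute difference of 0.12. Control was the lowest of the 3 libraries in 103 members, against 36.6% of all transcripts tested. Both comparisons use the same control library, so they are not independent of each other. The largest increase common to both doses was that of rank 73, with 10.6 FPKM in control, 17.6 FPKM in 0.078 µM and 16.97 FPKM in 0.156 µM offspring. The largest common decrease was that of rank 175, with 13.1, 8.05 and 8.98 FPKM.

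At 96 hpf, 128 members had at least 1 FPKM in a library, and 10 of these, 7.81%, had any 2 libraries at least 2-fold apart, against 8.02% of the 27496 transcripts tested at this stage. Over all 200 members the share was 5%, above the 2.58% of the 12101 transcripts with the members' floor at 24 hpf. With a pseudocount of 0.1, 14 of the 128, 10.9%, were that far apart, against 14.0% of the transcripts tested. Over all 200 members the count was then 40, 20%, since members below 1 FPKM in all libraries entered it. The 838 transcripts below 1 FPKM at 96 hpf with at least 1 FPKM in all libraries of 24 hpf had 28.5%. These 838 leave out transcripts at or near 0 in all 3 libraries of 96 hpf. The members keep them, with 10 listed at exactly 0, so the 20% and the 28.5% are of unlike sets. Transcripts with the members' floor at 24 hpf, not matched in level at 96 hpf, had 3.97%. The pair counts that follow use a pseudocount of 1. The 0.078 µM library was at least 2-fold higher than control in 5 members and lower in 0, where 1.86% of all transcripts tested were higher and 2.17% lower. The 0.156 µM library was higher in 5 and lower in 1, where 2.25% were higher and 2.41% lower. Between the copper groups 3 were higher and 3 lower at 0.156 µM, where 2.25% and 1.95% of all were. In either direction these are 2.5%, 3% and 3% of the 200 members, beside 4.03%, 4.66% and 4.20% of the transcripts tested. Only the 128 members at 1 FPKM or more could reach 2-fold, so shares of the 200 understate those of the members tested. Both copper libraries were at least 2-fold higher than control in 1 member, rank 31, against 0.731% of the transcripts tested, and lower in 0, against 0.938%. This member had 355 FPKM in control, 296 FPKM in 0.078 µM and 204 FPKM in 0.156 µM offspring at 24 hpf, and at 96 hpf it stood near 0 in control, at 1.17 FPKM in 0.078 µM and at 4.97 FPKM in 0.156 µM offspring. It kept 0.394% and 2.43% in the copper groups.

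Ranks 172 and 168 are among the 10 members with 2 libraries at least 2-fold apart at 96 hpf, and do not stand for the rest. Rank 172 had 97.8, 91.0 and 118 FPKM at 24 hpf and 2.24, 18.4 and 1.96 FPKM at 96 hpf, so the 0.078 µM library alone was high. Rank 168 had 34.2, 30.6 and 30.8 FPKM at 24 hpf and 5.64, 5.49 and 2.27 FPKM at 96 hpf, so the 0.156 µM library alone was low. Neither pattern is common to both doses. With a pseudocount of 1, rank 168 was the only member with a copper library at least 2-fold below control at this stage. With a pseudocount of 0.1, both copper libraries were that far below control in 2 of the 200 members and above it in 11. Among the rest of the 10, ranks 14, 22, 23 and 31 rose from control through 0.078 µM to 0.156 µM. In rank 28 the 0.156 µM library alone was high, and in ranks 47, 49 and 108 the 0.078 µM library was the highest.

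Among the members with the largest decrease, the residual trace was lowest in control, and the copper libraries mostly followed in the order of dose. This order was noticed in the values and then counted. Of the 15 members of rank 1 to 15, 3 were listed at 0 in all libraries of 96 hpf, and in the other 12 control had the lowest residual level in all 12. In 9 of these the 0.156 µM library had the highest and the 0.078 µM library the middle value. Among all transcripts tested at 96 hpf control was the lowest in 35.9%, and the order control, 0.078 µM, 0.156 µM from low to high was found in 20.6%. Among the 838 transcripts with at least 1 FPKM in all 3 libraries of 24 hpf and below 1 FPKM at 96 hpf these shares were 32.5% and 16.7%. Transcripts at or near 0 in all 3 libraries of 96 hpf are not among the 838.

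Rank 4 had 394, 447 and 395 FPKM at 24 hpf and 0.0375, 0.135 and 0.240 FPKM at 96 hpf. Rank 7 had 374, 402 and 370 FPKM at 24 hpf and 0.0174, 0.141 and 0.369 FPKM at 96 hpf. Rank 14 had 658, 624 and 579 FPKM at 24 hpf and 0.159, 0.402 and 2.07 FPKM at 96 hpf. In each of these the residual was higher at the higher parental dose, while the level at 24 hpf did not follow that order. Rank 5 had the same order with 0.0697, 0.0730 and 0.145 FPKM at 96 hpf, where control and 0.078 µM lay close together. Ranks 1, 12 and 13 departed from the order, with a 0.078 µM value above that of 0.156 µM, as in rank 13 with 0.0144, 0.268 and 0.239 FPKM.

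Summed over the 12 members, the residual was 0.510 FPKM in control, 2.29 FPKM in 0.078 µM and 4.55 FPKM in 0.156 µM offspring, which is 0.00947%, 0.0416% and 0.0871% of their summed level at 24 hpf. Rank 14 alone held 0.159, 0.402 and 2.07 FPKM of these sums, so the 0.156 µM sum rests largely on 1 member. Over the 12 members, the median residual was 0.0278 FPKM in control, 0.138 FPKM in 0.078 µM and 0.239 FPKM in 0.156 µM offspring. The median percentage left was 0.00756%, 0.0340% and 0.0626% in that order. Their summed level at 24 hpf was 5385, 5505 and 5223 FPKM, and in the 15 members the ascending order was found 0 times at 24 hpf. Extended to rank 25, control was the lowest in 18 of the 21 members with 3 different values, and 15 of them followed the ascending order. From rank 26 to 200 control was the lowest in 69 of 168 members, 41.1%, and the ascending order was found in 42, 25%. Transcripts with the members' floor at 24 hpf had shares of 41.1% and 23.6%. The members of rank 1 to 25 may share a gene or fragments with each other, which the files do not show, so they are not separate observations. With 1 library per group the order was not tested, and residuals of this size can rest on few fragments. In ranks 11 and 12 the control value was 9.78e-06 and 7.85e-81 FPKM, too small to be read as an amount of RNA. Of the members below 1 FPKM in all 3 libraries of 96 hpf, which include members of the first 25 ranks, 61 had 3 different values. Control was the lowest in 29 of these, 47.5%, and the ascending order was found in 17, 27.9%. A property of a whole library cannot be told apart from the parental dose.

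**Figure D3:**
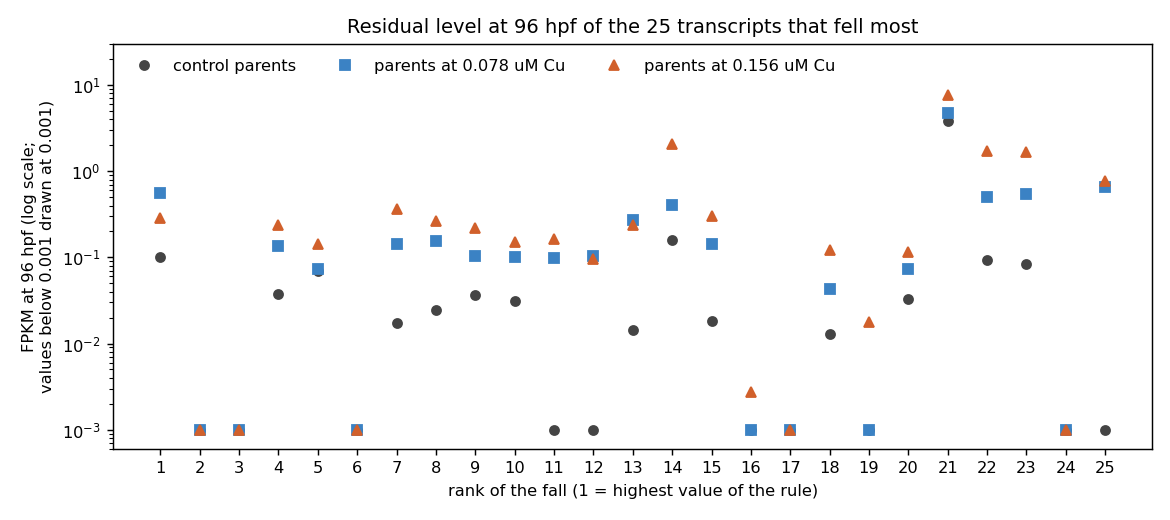
FPKM at 96 hpf (y axis, log scale, values below 0.001 drawn at 0.001) of the members of rank 1 to 25 (x axis), with 1 point for each parental group. Control points are the lowest in 18 of the 21 members with 3 different values, and the 0.156 µM point is usually the highest.

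A pseudocount of 1 hides differences at such levels. With 0.1 in its place, both copper libraries were at least 2-fold higher than control at 96 hpf in 11 of the 200 members, 5.5%, and lower in 2, 1%. The shares were 2.08% and 1.77% of all transcripts tested, and 4.89% and 3.46% of the 838 transcripts below 1 FPKM at 96 hpf. Only 72 of the 200 members were below 1 FPKM in all 3 libraries of that stage. The 5.5% is above the share of all transcripts tested and near that of the 838, and neither set matches the members in level. The 838 leave out transcripts at or near 0 in all 3 libraries of 96 hpf, which the members keep. Of the 11, 7 were among the first 25 ranks. Both doses share the control library of this stage.

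Whether the decrease held in a parental group that had no part in the choice was examined by running the same rule on the other 2 groups. The 200 transcripts chosen without control were at least 2-fold lower at 96 hpf in control in 183 cases, against 11.6% of the 30156 transcripts tested. Those chosen without 0.078 µM were lower in the 0.078 µM libraries in 181 cases, against 11.1%, and those chosen without 0.156 µM in the 0.156 µM libraries in 190 cases, against 12.3%. At least 4-fold lower were 178, 172 and 181, where the shares over all transcripts tested were 1.97%, 1.88% and 2.28%. The median log2 decrease in the group left out was 2.95, 2.97 and 2.95. Of the 200 members, 173, 168 and 169 were chosen again.

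**Figure D4:**
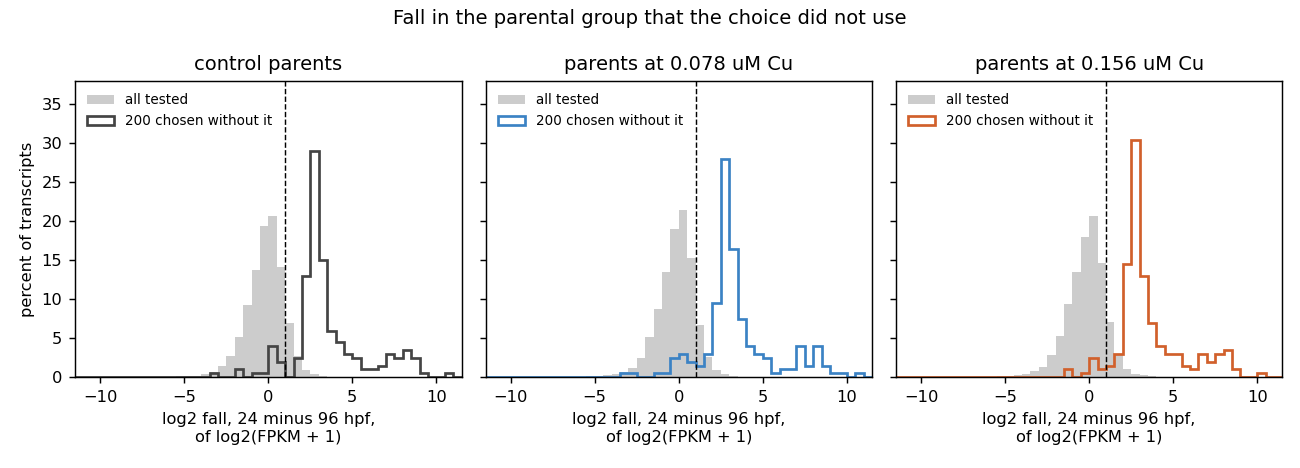
Log2 decrease from 24 to 96 hpf of log2(FPKM + 1) (x axis) in the parental group named above each panel, as a percentage of transcripts (y axis). Grey bars show all 30156 transcripts tested and coloured lines the 200 transcripts chosen from the other parental groups, of which 183, 181 and 190 lie at or beyond the dashed line of a 2-fold decrease.

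Those that were not 2-fold lower in the group left out numbered 17 in control, 19 in 0.078 µM and 10 in 0.156 µM offspring. In 8 of each the group left out had below 0.1 FPKM already at 24 hpf, where the other groups held at least 4 FPKM. In 6, 11 and 2 it had 1 FPKM or more at 24 hpf. The group left out was at least 2-fold higher at 96 hpf in 3, 3 and 2 transcripts.

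Copper at either dose was compared with control over both stages in a limma fit of all 30156 transcripts with stage as a block, in which doses and stages stand in for replicates. Of the members, 0 passed an adjusted p of 0.05, against 0.00332% of all transcripts (limma, Benjamini-Hochberg adjustment). An unadjusted p below 0.05 was found for 15 members, 7.5%, of which 11 were higher in copper offspring, against 4.85% of all transcripts. Directions were not counted over all transcripts, and all these estimates share the same control libraries. The smallest p belonged to ENSDART00000112116 of rank 56, with 53.7 FPKM in control, 70.6 FPKM in 0.078 µM and 70.3 FPKM in 0.156 µM offspring at 24 hpf and 2.77, 4.24 and 4.57 FPKM at 96 hpf. All copper libraries lay above the control of their stage, with a log2 difference of 0.45 ± 0.06 (SE) and an adjusted p of 0.651 in limma. Rank 175, low in copper offspring at 24 hpf, had 0.920 FPKM in control against 0.00143 and 0.00265 FPKM at 96 hpf, and a log2 difference of -0.75 ± 0.12 (SE) with an adjusted p of 0.829 in limma. Neither passes the threshold.

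The second fit asked whether the change between the stages differed between copper and control offspring. Of the members, 0 passed an adjusted p of 0.05 for the interaction of stage and copper, against 0.0398% of all transcripts (limma, Benjamini-Hochberg adjustment). An unadjusted p below 0.05 was found for 9 members, against 6.65% of all transcripts. The smallest p was that of ENSDART00000157748 of rank 25, with 149, 164 and 178 FPKM at 24 hpf and a level near 0 in control, 0.662 FPKM in 0.078 µM and 0.762 FPKM in 0.156 µM offspring at 96 hpf. Its interaction was 0.58 ± 0.13 (SE) on the log2 scale, with an adjusted p of 0.632 in limma. The fits have 3 and 2 residual degrees of freedom, and their p-values measure the spread between doses and stages, not between clutches. They also use the libraries that chose the members. The rule keeps out transcripts that were low at 24 hpf or high at 96 hpf in any parental group. That 0 members passed therefore does not show that the decrease was alike in copper and control offspring.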

How the data were processed

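RNA-seq libraries of 6 groups, 1 library each, were read as FPKM, 1 value per identifier. The authors deposited FPKM per transcript, per the file headers, and the submitters' processing notes name Cufflinks 2.1.1, TopHat2 and Trimmomatic without settings. No source used here gives the genome build, the annotation or any further scaling of libraries. The depth is unknown, so no counting intervals are given and no count test was run. Sums of FPKM were 476499 to 562987 per library. Files were joined by identifier, of which 57761 are transcript IDs and 241 gene IDs.

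Members are the 200 identifiers with the highest log2((lowest 24 hpf FPKM + 1)/(highest 96 hpf FPKM + 1)). Transcripts with at least 1 FPKM in a library compared were tested, and 2-fold differences are on log2(FPKM + 1), which understates the change of low transcripts. limma 3.58.1 in R 4.3.3 was run with a variance trend over all transcripts. A run on simulated data placed large changes in transcripts of higher mean level. It does not bear on small differences or on traces at 96 hpf. Members named were taken from those with the 15 highest rule values, the 5 highest levels at each stage, the largest copper differences and the smallest p. Not all members that meet this rule are named in the text. Members beyond this rule (ranks 22, 23, 28, 30, 41, 45, 49, 74, 84, 108, 134, 168, 172 and 188) were chosen after their values were seen. Only a few IDs are printed, as they could not be paired with genes, and the gene lists that had been prepared were not used for the same reason. Members and tests were chosen with earlier results of these data known.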

Additional observations from a re-analysis of the deposited data

How the results depend on the processing

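Of the 200 members, 129 were chosen again with a pseudocount of 0.1, and 147 to 188 under the other alternatives of the rule that used all 3 parental groups. The median percentage left, 7.95% from the means of each stage, became 9.13% after rescaling to a sum of 1000000, 6.86% after quantile normalization, 8.54% without identifiers listed at 0 and 8.37% without the 0.156 µM group. Members with any 2 libraries 2-fold apart, 7 at 24 hpf and 10 at 96 hpf, numbered 20 and 25 at a fold of 1.5 and 2 and 2 at a fold of 4. These counts are over all 200 members. Of all transcripts tested, 18.9% at 24 hpf and 17.04% at 96 hpf were apart at a fold of 1.5. At a fold of 4 the shares were 1.91% and 1.55%. Shares at these folds were not computed for transcripts with the members' floor. At 96 hpf the members 2-fold apart numbered 40 with a pseudocount of 0.1 and 1 with a pseudocount of 5. With 0.1 these are 20% of the 200 members, 14 of them among the 128 at 1 FPKM or more. Over all transcripts tested at 96 hpf the 8.02% apart became 14.0% with 0.1 and 1.16% with 5. The 838 low transcripts, which leave out those at or near 0 in all libraries of 96 hpf, had 28.5% with 0.1. Transcripts with the members' floor at 24 hpf had 3.97%. Of the 200 chosen, those at least 2-fold lower in the group left out numbered 152 to 195 over the pseudocounts and scalings. The share over all transcripts was not computed for these settings. The order of residual levels in the first 15 ranks gave 12 and 9 members under rescaling and quantile normalization too, which were added after seeing the data. The 96 hpf sums were 476499, 486953 and 491171 FPKM, so rescaling could hardly change this order. The repeat uses the same values and adds no support for the order.

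Members called in limma numbered 0 under each alternative and without each library left out in turn, with smallest adjusted p-values of 0.379 to 0.964 for copper and 0.126 to 0.803 for the interaction. The interaction has no estimate without a control library. Few of all transcripts were called in most alternatives. With a pseudocount of 0.1, 2 of 30156 were called for copper and 1 for the interaction. Without the filter on level, 55 and 1635 of 58002 identifiers were called. Where so few of all transcripts were called, 0 members was nearly fixed in advance. Each group has 1 library and the labels carry no replicate numbers, so no fit with replicate numbers as a block was run beside the block of stage. Depth limits what can be said of residuals below 0.1 FPKM. At 96 hpf the control values called near 0 were 1.18e-31 FPKM for rank 25 and 3.58e-30 FPKM for rank 31. Values this small cannot be read as amounts of RNA. How fragments were divided among transcripts that share them is not known, and its part in these values was not tested.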

Other observations

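Some transcripts missed the 200 because of a single parental group. One had 561 and 588 FPKM in 0.078 µM and 0.156 µM offspring at 24 hpf, was listed at 0 in control, and was listed at 0 in all 3 libraries of 96 hpf. Another had 582, 202 and 424 FPKM at 24 hpf and was listed at 0 in control and 0.156 µM offspring at 96 hpf, while the 0.078 µM library held 277 FPKM. Yet another had 57.0 and 59.4 FPKM in control and 0.078 µM offspring at 24 hpf and was listed at 0 in the 0.156 µM library and in all libraries of 96 hpf. Each parental group, control included, was the odd one in at least 10 such cases, and the cases were chosen after their values were seen.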
